A study of Caenorhabditis elegans with 4 samples.

Results

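The 385 regions of chromosome V in a genome-wide list of MAB-5 binding sites in *Caenorhabditis elegans* larvae are described here. They were chosen by their chromosome name alone and are all chromosome V entries among the 2261 regions of the combined list. MAB-5 belongs to the Hox family of homeodomain transcription factors. It is made in the posterior body, sets the identity of posterior cells and directs the migration of neuroblasts of the Q lineage. Hox proteins bind short and frequent DNA words, often together with partner homeodomain proteins, so that a factor of this kind has many sites spread over all chromosomes. Autosomes of this nematode have gene-dense centres that recombine little and arms that recombine often and carry more repeats. Chromosome V is the longest of them, and its arms hold large families of chemoreceptor genes.

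Binding was measured by chromatin immunoprecipitation followed by sequencing (ChIP-seq) in 2 ChIP samples, with 2 samples of input chromatin from the same kind of extract. Both groups came from strain OP27, hermaphrodites that carry the unc-119(ed3) allele and the transgene wgIs27. This transgene holds mab-5::TY1 EGFP FLAG, a tagged MAB-5, together with a copy of unc-119 that marks the worms that carry it, and had been introduced by bombardment. Worms were grown at 20 °C on HB101 bacteria and collected as L2 larvae, the stage after the first moult. The genotype names no mutation of the chromosomal mab-5 gene. Larvae were crosslinked with 2% formaldehyde, and tagged protein was precipitated with antibodies against GFP. Whole larvae were used, so many cells with little bound MAB-5 and few cells with much of it cannot be told apart in any region.

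The data are 3 deposited lists, 1 for each ChIP sample and the combined one, and no list for input was used. An entry gives a chromosome, a start, an end and the authors' q value. Strength below is −log10 of that q value, so it measures significance and not the height of binding. Read counts were not given, and the depth of each library is unknown. Coordinates are those of the WS180 build. With no WS180 genome at hand, regions of V are given by position, without genes or sequences. The labels do not say whether the replicates came from separate cultures. Regions are not independent replicates, since neighbours lie close together, and the tests below compare counts of listed regions only.

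Chromosome V was the most thinly populated of the 6 nuclear chromosomes in the combined list. It held 385 regions over a span of 20.9 Mb from its first to its last listed base, or 18.5 regions per Mb. The other 5 chromosomes together held 1876 regions over 78.4 Mb, or 23.9 per Mb. The ratio was 0.771 (exact 95% interval 0.689 to 0.861), with an adjusted p of 1.20e-05 in a two-sided exact binomial test against the shares of span. The adjustment ran over 18 tests, made of 6 chromosomes in 3 zones, and the comparison was chosen with the lists already in view. Among single chromosomes the other densities ran from 21.2 per Mb on chromosome I to 29.3 on chromosome III. Set against each of them in turn, chromosome V was lower with an adjusted p of at most 0.00737 for II, III, IV and X. Against chromosome I the ratio was 0.871 (0.749 to 1.01, adjusted exact binomial p = 0.0983 over 15 tests), which did not pass the threshold of 0.05. In bases, regions covered 0.971% of the span of V, against 1.13 to 1.51% of the others. The span between listed regions stands in for chromosome length in all of these values.

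Against the other chromosomes together, the lower density passed the test in the arms and not in the centre. The centre is taken here as the middle 50% of the span, from 5224875 to 15658407 on V, and each arm as the 25% of the span at that end. These limits are arithmetic and are not the borders of the genetic map. The arms of V held 119 regions, or 11.4 per Mb, against 19.9 per Mb in the arms of the other chromosomes. That ratio was 0.572 (0.468 to 0.695), with an adjusted exact binomial p of 3.57e-08. Each other chromosome had denser arms than V, from 16.04 per Mb on II to 23.4 on X, and each of the 5 pairwise tests passed, the largest adjusted p being 0.0134 against II. In the centre V held 266 regions, or 25.5 per Mb, against 27.9 per Mb elsewhere. The ratio of 0.912 (0.795 to 1.04) did not pass the test (adjusted exact binomial p = 0.330). Against the other autosomes alone the ratio in the centre was 0.866 (adjusted exact binomial p = 0.0969). Single centres ran from 22.6 per Mb on X to 35.3 on III. In the pairwise tests the centre of V was lower than that of III, with a ratio of 0.722 (0.604 to 0.863, adjusted exact binomial p = 0.000695). The ratios to I, II, IV and X ran from 0.862 to 1.13 and did not pass (smallest adjusted exact binomial p = 0.125). The number of genes in these zones was not analysed here.

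**Figure D1:**
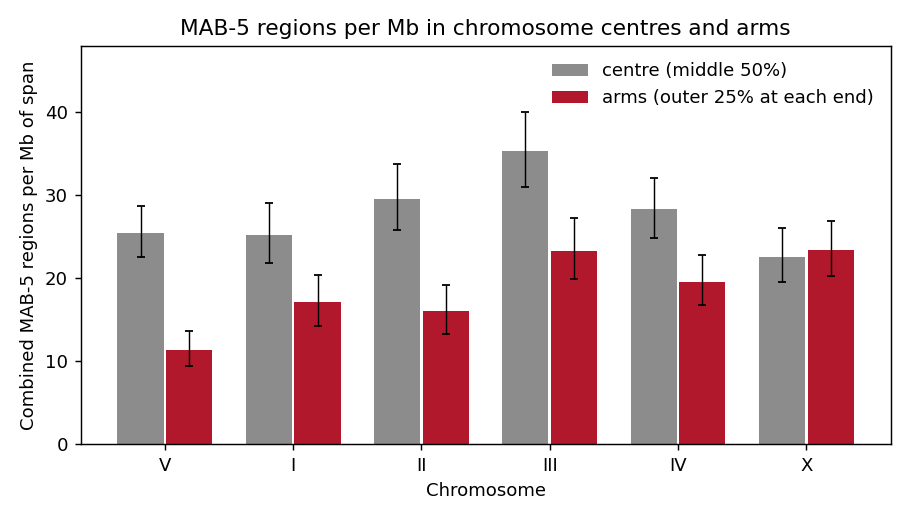
Combined MAB-5 regions per Mb of listed span (vertical axis) in the centre (grey) and the arms (red) of each chromosome (horizontal axis, V first). Error bars are exact 95% Poisson intervals of the counts; the arms of V, at 11.4 per Mb, lie below those of each other chromosome, and its centre, at 25.5 per Mb, lies within the range of the others.

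Regions of V were concentrated in the centre more than those of the rest of the genome. Of the 385 regions, 266 were central, or 69.1% (exact 95% interval 64.2 to 73.7%), against 1095 of 1876 elsewhere (58.4%, 56.1 to 60.6%). Over the whole list the share was 60.2%. The difference of 10.7 percentage points had an adjusted p of 0.000569 in a two-sided Fisher exact test, adjusted over 36 tests of 6 measures on 6 chromosomes. The X chromosome, with 49.1% in its centre, is part of the rest. Chromosome II came nearest to V, with 64.8% (59.6 to 69.9%), and V was not tested against any single chromosome for this share. Against the other 4 autosomes alone (60.9%) the difference was 8.22 points (adjusted Fisher exact p = 0.0309). The call was lost with a centre of one in 3 parts of the span (45.97% of V regions against 39.2%, adjusted Fisher exact p = 0.0993). It was also lost in the shorter replicate 1 list on its own, where 63.6% of 129 distinct V regions were central against 55.3% elsewhere (adjusted Fisher exact p = 0.318). The lower density of the arms passed in each of these settings.

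Both arms were sparse, and neither held detectably more regions than the other. The left arm held 67 regions and the right arm 52 (two-sided exact binomial p = 0.199, adjusted p = 0.498 over 5 tests within V). These were 17.4% and 13.5% of the V regions. On the other autosomes the left arms held 18.3% and the right arms 20.9%, so V differed more from them on the right. That contrast was not tested. In 20 bins of 5% of the span, about 1.04 Mb each, counts ran from 5 to 34. The emptiest were the bins at 2094816 to 3138168 in the left arm and at 15658407 to 16701759 in the right arm, with 5 regions each, followed by 16701760 to 17745113 with 6. These 3 bins of V held 4.79, 4.79 and 5.75 regions per Mb, against 14.1, 28.2 and 14.1 in the matching bins of the other autosomes. The fullest bin of V was at 10441642 to 11484994, with 34 regions or 32.6 per Mb, close to the 32.1 per Mb of the other autosomes. V lay below the pooled other autosomes in 8 of the 10 arm bins and in 6 of the 10 central bins. Both arm bins where it lay above were in the left arm. They were at 1051463 to 2094815 (17.3 against 16.7 per Mb) and at 4181523 to 5224875 (21.1 against 17.04 per Mb). Along the 20 bins the densities of V and of the other autosomes rose and fell together with a Spearman's rho of 0.676, a description of bins that all share the same libraries. At the right border the change was abrupt: the last central bin held 25 regions and the first bin of the arm 5. At the left border the last arm bin held 22 and the first central bin 32.

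**Figure D2:**
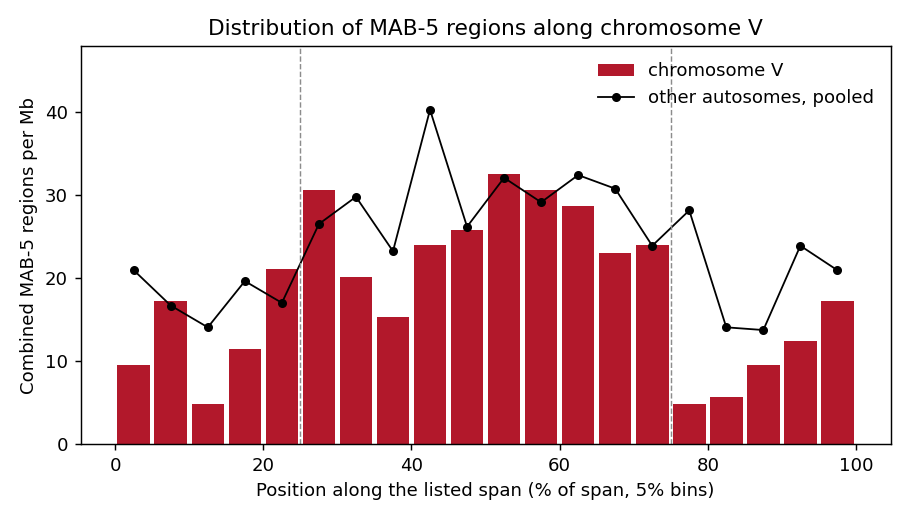
Combined MAB-5 regions per Mb (vertical axis) in 20 bins along the listed span (horizontal axis, % of span), for chromosome V (red bars) and for the other 4 autosomes pooled (black line). Dashed lines mark the limits of the centre; the bar just right of the second line, with 4.79 regions per Mb, stands against 28.2 on the other autosomes.

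The 3 longest stretches without any combined region were named by rule, and all of them lay in the arms. The longest ran from 16965987 to 17728727, or 763 kb. It began at the base after the region ranked 2 on V. The next ran from 2694848 to 3307320 (612 kb), and the last from 15766530 to 16350973 (584 kb). No distinct region of replicate 1 or of replicate 2 had its centre in any of the 3. Gaps of more than 200 kb numbered 17 on V, or 4.43% of its 384 gaps, against 32 of 1871 (1.71%) elsewhere. Of the 17, 6 lay in the left arm, 4 in the centre and 7 in the right arm. This difference repeats the low density of the arms and was not tested by itself.

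Regions of V were neither detectably weaker nor narrower than those of other chromosomes. The smallest q value was 1.73e-88, the largest 0.000188 and the median 5.06e-07. The median strength was 6.30, against 6.51 elsewhere. Of the V regions, 185 (48.1%, 42.96 to 53.2%) lay above the median strength of the whole list, against 945 of the 1876 others (50.4%, 48.1 to 52.7%), where the whole list has 50.0%. The adjusted Fisher exact p was 0.743. In width, V regions had a median of 415 bp, an interquartile range of 335 to 591 bp and a longest region of 3976 bp. Above the list's median width lay 187 (48.6%), against 940 elsewhere (50.1%) and 49.8% over the list (adjusted Fisher exact p = 0.885). Wider regions were also stronger, with a Spearman's rho of 0.413 over the 385 V regions and 0.407 over the others, a description across regions of 1 list. The 25 V regions of at least 1000 bp had a median strength of 12.6, and the 96 under 335 bp one of 4.63. A single region, at 14755060 to 14755064, was only 5 bp wide (q = 3.81e-05), and was singled out after its width was seen.

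Within V, position went with number and not detectably with strength. In the centre 129 of 266 regions (48.5%) were above the median strength of the list, against 56 of 119 in the arms (47.1%), a difference of 1.44 points (adjusted Fisher exact p = 1 over 5 tests). Median strengths were 6.44 in the centre, against 6.14 in the left arm and 5.75 in the right arm. Regions with a strength of at least 10 made up 26.3% of the centre, against 28.4% of the left arm and 19.2% of the right arm. The strongest regions were thus not confined to the dense centre: of the 20 strongest on V, 12 lay there, 5 in the left arm and 3 in the right arm.

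**Figure D3:**
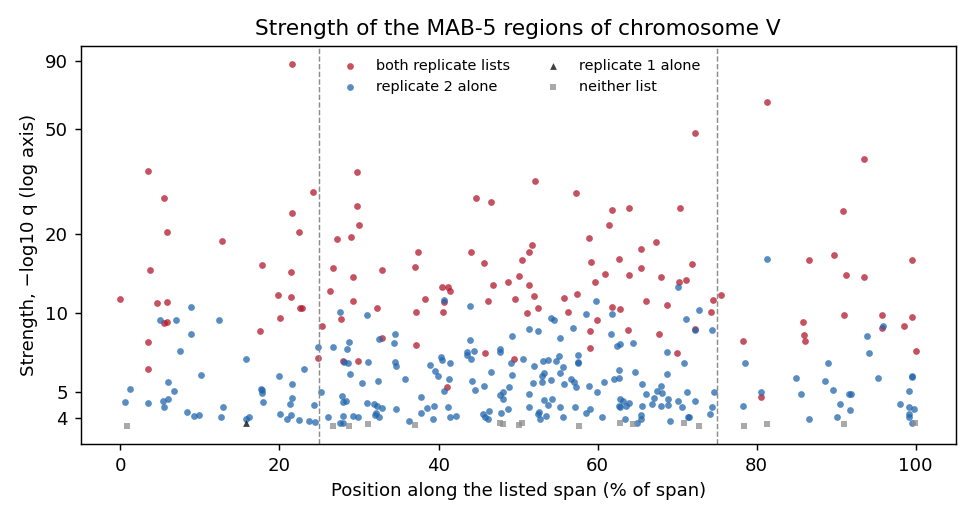
Strength (−log10 q, log axis) of each of the 385 regions of chromosome V (points) by position along the listed span (% of span), coloured by the replicate lists that hold an overlapping entry. Points thin out beyond the dashed limits of the centre, while the 2 highest, at 87.8 and 62.97, lie in the left and the right arm.

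The strongest region of V lay in the left arm at 4506580 to 4508582. Its q value was 1.73e-88 in the combined list and in replicate 2, and 5.52e-43 in replicate 1, where it also ranked 1 on V. It was 2003 bp wide, and ranked 8 among all 2261 regions. Its strength, 87.8, exceeded that of the next V region 1.39 times. That region lay in the right arm at 16963254 to 16965986, 2733 bp wide, with q values of 1.06e-63 in the combined list and 5.90e-38 in replicate 1. Replicate 1 thus put the same 2 arm regions first as the combined list, whose q values replicate 2 repeats for both. Next came a central region at 15070918 to 15071838 (q = 9.07e-49 combined and 6.52e-18 in replicate 1), followed by a right arm region at 19522512 to 19523156 (q = 4.86e-39 and 8.28e-17). Of the 100 strongest regions of the genome, 11 lay on V.

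The fifth region differed between the lists. In the combined list it was a single stretch of 3976 bp at 723827 to 727802, the widest region of V, with a q value of 2.99e-35. Replicate 2 held the same stretch. Replicate 1 held 2 separate regions inside it and none across it, the stronger with a q value of 1.26e-08, and by that value it ranked 33 on V. The ninth region, at 11958869 to 11959950 (q = 3.17e-29), was likewise split into 2 in replicate 1, with a best q value there of 9.40e-07 and rank 66. Among the 385 V regions, these 2 alone overlapped 2 or more distinct regions of replicate 1.

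A pair of wide central neighbours was also among the strongest. The region ranked 6 lay at 6223205 to 6226002 (2798 bp, q = 6.39e-35 combined and 6.09e-17 in replicate 1) and the other, ranked 13, at 6227272 to 6229874 (2603 bp, q = 3.15e-26 and 4.93e-12), with 1269 bp between them. The remaining central regions among the 20 were, in order of strength, at 10897095 to 10897566, 9343048 to 9344611, 9730779 to 9732287, 13351773 to 13352809, 14685559 to 14686001, 12895966 to 12896548, 12814250 to 12814994 and 6267429 to 6267850. Those of the left arm were at 5049266 to 5049977, 1151240 to 1152071 and 4498949 to 4501165, and the last of the right arm at 18967631 to 18967992. Strengths of the 20 ran from 21.5 to 87.8 in the combined list and from 6.03 to 42.3 in replicate 1. Their median width was 979 bp, against 415 bp for V as a whole.

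All 20 overlapped an entry in both replicate lists, and 17 of them were among the 20 strongest V regions by their replicate 1 value. In each the strength was lower in replicate 1 than in the combined list. A second entry lay inside 18 of the 20 in replicate 1, with strengths of 4.25 to 19.7. In replicate 2, each of the 20 also held an entry with a q value other than that of the combined region, with strengths of 4.27 to 27.4. Replicate 1 was stronger than that entry in 16 of the 20. The gap was widest for the region ranked 2, with 37.2 in replicate 1 and 5.99 for that entry, while the region ranked 3 had 17.2 and 17.5. The strongest replicate 2 entry of the region ranked 2 repeats the combined q value, with a strength of 62.97. These pairs thus set a lesser entry of replicate 2 against the strongest of replicate 1, and do not show which replicate was stronger.

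**Figure D4:**
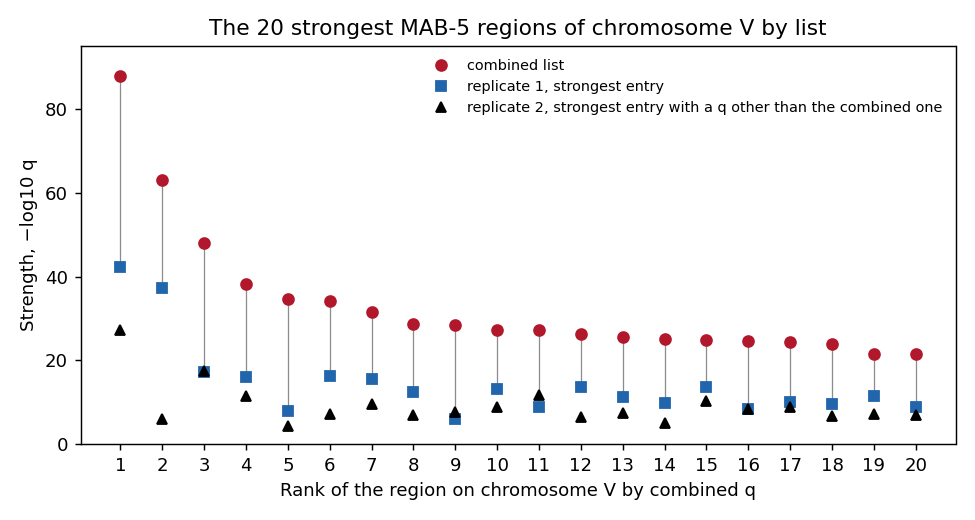
Strength (−log10 q, vertical axis) of the 20 strongest regions of chromosome V, ordered by combined q value (horizontal axis), in the combined list (red circles), in replicate 1 (blue squares, strongest entry) and in the strongest replicate 2 entry with a q value other than the combined one (black triangles). Combined values run from 21.5 to 87.8 and each lies above its replicate 1 value.

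The replicate lists were compared to find how many V regions each held. Of the 385 regions, 126 overlapped an entry in both lists by at least 1 bp, or 32.7% (28.1 to 37.7%). Elsewhere 617 of 1876 did (32.9%, 30.8 to 35.1%), and the whole list had 32.9%, so the share on V was that of the background (adjusted Fisher exact p = 1). Of the 385 regions, 343 stand unchanged in replicate 2, position and q value alike, and whether that list was called independently of the combined one is not given in the sources. Being in both lists therefore says little more than being in replicate 1, which held 1 further V region. Replicate 2 alone held 240 V regions (62.3%, background 63.5%), replicate 1 alone held 1, and neither held 18 (4.68%, 2.79 to 7.29%, background 3.54%). Overlapping entries of a replicate list were joined into distinct regions. Of these, 126 of 367 V regions of replicate 2 were found in replicate 1 (34.3%), against 617 of 1820 elsewhere (33.9%) and 34.0% over all (adjusted Fisher exact p = 1). In the other direction 128 of the 129 distinct V regions of replicate 1 were found in replicate 2.

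On V the regions of both lists were the strong ones, which the extent of the replicate 1 list fixes in part. Its V entries had q values of at most 6.54e-05, a strength of 4.18. In all 126 regions of both lists the replicate 1 strength was below the combined one. Regions of both lists had a median strength of 12.1, and the regions of replicate 2 alone one of 5.07. Each of the 25 strongest V regions was in both, and so were 49 of the top 50, 92 of the top 100 and 124 of the top 200. The top 300 held all 126. When all combined regions were divided into 4 equal groups by strength, V held 89 of the strongest group, of which 83 were in both lists (93.3%, 85.9 to 97.5%), against 430 of 475 elsewhere (90.5%). In the next group the counts were 40 of 96 on V (41.7%, 31.7 to 52.2%) and 145 of 470 elsewhere (30.9%, 26.7 to 35.2%). Below that they were 3 of 85 on V (3.53%) and 33 of 480 elsewhere (6.88%). In the weakest group 0 of 115 V regions were in both, against 9 of 451 elsewhere (2.00%). Combined strengths in that group reached 4.71 at most, which left little room on V for a weaker replicate 1 entry. The low share there was thus largely set by where the list ends. A count of 0 allows a share of up to 2.61% by the limit of 3 counts, and the exact 95% interval drawn in the plot by strength reaches 3.16%. The differences within groups were not tested.

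**Figure D5:**
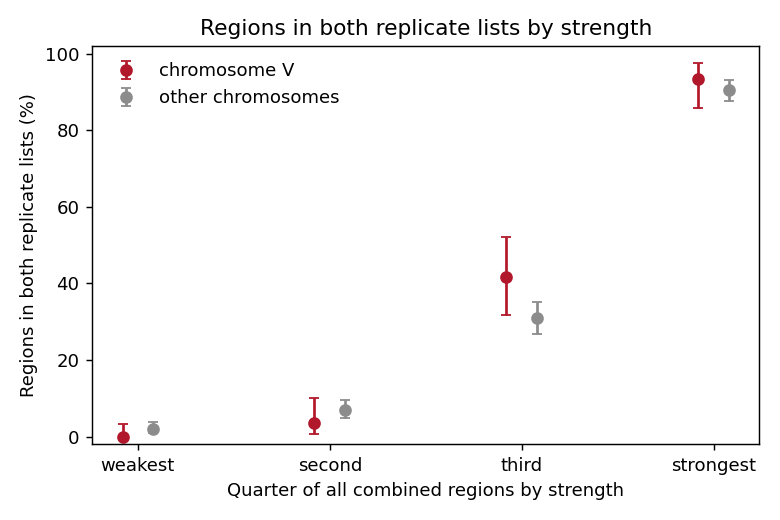
Share of combined regions in both replicate lists (vertical axis, %) in 4 groups of equal size by strength over the whole list (horizontal axis), for chromosome V (red) and the other chromosomes (grey). Bars are exact 95% intervals; on V the share is 0% in the weakest group and 93.3% in the strongest.

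Within V, regions of the arms were in both lists slightly more often than those of the centre, without passing the test. The counts were 81 of 266 in the centre (30.5%, 24.98 to 36.4%) and 45 of 119 in the arms (37.8%, 29.1 to 47.2%), a difference of -7.36 points (Fisher exact p = 0.160, adjusted p = 0.498). The left arm had 25 of 67 (37.3%) and the right arm 20 of 52 (38.5%), with an adjusted Fisher exact p of 1. Bins of the span held between 1 and 13 regions of this kind, the most at 5224876 to 6268228.

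Most V regions had no entry in replicate 1, since replicate 2 alone held 240 and neither list held 18, and only the strongest are named. The strongest V region missing from replicate 1 lay at 16958930 to 16960375 (1446 bp, q = 9.02e-17, rank 34 on V). It lay close to the region ranked 2, and a weak region at 16960812 to 16960942 stood between them. Next were regions at 14649662 to 14650919 (q = 2.51e-13) and at 8494238 to 8494641 (q = 6.72e-12). The only distinct V region of replicate 1 not found in replicate 2 lay at 3307321 to 3307524 (q = 5.19e-05), inside a combined region with a q value of 0.000153 that closes one of the long empty stretches. The 18 regions that neither replicate list held were at the weak end, with q values of 0.000152 to 0.000188 and a median width of 325 bp. Each lay past the end of the replicate 2 list, whose V entries had q values of at most 0.000148. Their absence there thus goes with the extent of that list. The first 3 by q value, all at 0.000152, were at 10557043 to 10557352, 13110691 to 13110952 and 20843318 to 20843642.

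The replicate 2 values of V are largely those of the combined list. Of its 443 V entries, 343 had the coordinates and q value of a combined region, 10 more had the q value of the combined region they overlapped, and 90 had neither. No V entry of replicate 1 was identical to a combined region. Over the 126 V regions in both lists, the replicate 1 strength was below the combined one in all 126, with a median ratio of 0.493 (interquartile range 0.423 to 0.590). In 66 of them replicate 2 held an entry with a q value other than the combined one. Replicate 1 was stronger than that entry in 48 of the 66 regions and weaker in 17. The median ratio of the replicate 1 strength to that of this entry was 1.33 (interquartile range 0.992 to 1.58). Equal q values also occur among unrelated regions, since the 976 entries of replicate 1 hold 604 different q values, so a shared q value was counted only where regions overlapped. Which of the replicates looked weaker thus depended on which replicate 2 entry was read, and depth is unknown in both.

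The replicate 1 list held fewer strong regions on V, though not beyond adjustment. Of its 129 distinct V regions, 13 had a strength of at least 10 (10.1%, 5.48 to 16.6%), against 120 of 629 elsewhere (19.1%, 16.1 to 22.4%) and 17.5% over the list. The Fisher exact test gave p = 0.0153 and an adjusted p of 0.0916 over 12 tests. Regions made of 2 overlapping entries numbered 25 on V (19.4%), against 193 elsewhere (30.7%) and 28.8% over the list, with a Fisher exact p of 0.0102 and the same adjusted p of 0.0916. These measures were chosen after the values had been seen. In replicate 2, 74 of 367 distinct V regions and 386 of 1820 others had 2 or more entries.

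Short gaps were not detectably rarer on V than elsewhere, in spite of the lower density, while its longer gaps were longer. Of the 384 gaps on V, 98 were at most 5000 bp (25.5%, 21.2 to 30.2%), against 447 of 1871 elsewhere (23.9%, 21.97 to 25.9%) and 24.2% over all (adjusted Fisher exact p = 0.816). The median gap was 24567 bp on V and 23949 bp elsewhere, and the upper quartile 67776 bp and 55142 bp. Short gaps made up 66 of 266 in the centre (24.8%) and 32 of 118 in the arms (27.1%, adjusted Fisher exact p = 1). In the replicate 1 list alone that contrast did pass, with 3.66% in the centre and 19.6% in the arms (adjusted Fisher exact p = 0.0411). That list held only 129 distinct V regions, so these shares rest on few gaps. Of its regions, 4 lay in the left arm stretch at 4491247 to 4510051 and 4 in the one at 723827 to 731775. In the combined list the contrast of centre and arms turned to 1.65 points with a centre of one in 3 parts and to 1.91 with gaps up to 10000 bp. It kept its direction in the other settings run. Joining regions no more than 5000 bp apart left 287 groups on V, with 224 single regions, 39 pairs, 17 groups of 3, 5 of 4 and 2 larger ones. Groups of 2 or more held 161 of the 385 regions (41.8%), against 39.98% elsewhere.

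The largest cluster of V surrounded its strongest region. It held 7 regions in 18.8 kb of the left arm, at 4491247 to 4510051, of which 4 were in both replicate lists. From left to right its strengths in the combined list were 11.5, 14.3, 4.11, 23.9, 4.77, 87.8 and 5.36. The 3 weak regions were in replicate 2 alone, and each followed a region with a strength above 10. In replicate 1 the strong regions had strengths of 9.69, 6.05, 9.61 and 42.3. A cluster of 5 regions lay in the centre at 10715673 to 10728016, with strengths from 4.39 to 17.04, and its first and last region were in both lists.

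The clusters of 4 regions, described after their values were seen, differed in how far replicate 1 held them. The stretch at 723827 to 731775 had 4 regions with the widest region of V at its head, and 3 were in both lists. Clusters of 4 at 13081147 to 13090809 and at 13110691 to 13115155 were neighbours in the centre, and each had 1 region in both lists. Those at 9970160 to 9978778 and, near the right end of the chromosome, at 20699426 to 20708795 had none, and their strongest regions had strengths of 7.33 and 5.08.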

How the data were processed

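The 3 region lists use build WS180 per the file headers and name PeakSeq, a caller that scores ChIP against input reads, as their source. The measurement deposited by the authors is a q-value per region. The sources used here give no aligner, caller settings, q value limit or account of how the combined list was made. Depth is unknown, since no counts were given. Columns of other samples numbered 0.

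Strength was computed as −log10 of q. Combined regions were used as listed. Entries of a replicate list that overlapped were joined into distinct regions, keeping the smallest q. Lists were matched by an overlap of at least 1 bp. Shares were compared by two-sided Fisher exact tests, and densities and the 2 arms by exact binomial tests, with Benjamini-Hochberg adjustment at 0.05. Share intervals are exact Clopper-Pearson 95% intervals and cover counting error only. Density tests and the replicate 1 measures were added after the lists had been seen. The regions and comparisons were chosen with earlier results of these data known. Named regions were the 20 strongest, the 3 widest, clusters of at least 5 (gaps up to 5000 bp) and the 3 longest empty stretches. The strongest of those missing from a replicate list were named as well. The 5 clusters of 4, the 5 bp region and the bins were named after their values were seen. The Fisher exact and density tests were checked on simulated independent counts, with centres placed evenly at random along each span. That check does not cover the clustering of the real regions. Genes were not assigned, because the only gene table was for a different build. Software was Python 3.11.15 with scipy 1.17.1, pandas 2.3.3, numpy 2.4.6 and, for figures, matplotlib 3.10.9.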

Additional observations from a re-analysis of the deposited data

How the results depend on the processing

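The lower density of V over its whole span and in its arms passed its test under each of the alternatives run, all added after the lists had been seen. They were the stronger 50% of the list, each replicate list alone, regions in both lists, autosomes only, a span from the 1st to the 99th percentile of centres, joined neighbours and, for the arms, a centre of one in 3 parts. The ratio in the arms ran from 0.490 to 0.685. The higher central share of V was 6.74 points with a centre of one in 3 parts, which missed the threshold, and 8.24 to 11.4 points with each replicate list alone, missing it in replicate 1. Within V, the short-gap difference of centre and arms was -15.9 to -1.48 points with each replicate list alone, passing in replicate 1 on few gaps. In the combined list it turned to 1.65 points with the narrower centre and 1.91 with gaps up to 10000 bp. None of the remaining turns of direction passed a test before or after. For V against the rest, the share in both lists turned to 5.64 points in the stronger 50% and 0.771 against autosomes. The width difference turned to 1.18 and 0.840. The short-gap difference turned to -4.96 in the stronger 50%, -0.301 with gaps up to 2000 bp, and was -5.69 to 1.39 with each replicate list alone. The share of replicate 2 regions found in replicate 1 turned to -0.647 with centres within 200 bp. The strength difference within V turned to -2.71 in the stronger 50% and was -0.641 to 2.88 with each replicate list alone, and the difference of the arms in both lists turned to 0.168 with arms of one in 3 parts. The causes were not tested. No paired analysis was possible because the input samples, which share the replicate numbers, have no list analysed here. Leaving out a replicate was not run for the shares in both lists, which need both.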
